A study of Mus musculus with 27 samples.

Results

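Solute carriers are membrane proteins that move small molecules across the plasma membrane and the membranes of lysosomes, mitochondria and the Golgi, and mouse genes of these families carry symbols that begin with Slc and a family number. The genes described here were the protein-coding genes with such a symbol that reached 1 CPM (the count scaled by the library total) in at least 3 of the 27 libraries, leaving out 7 genes by name (Slc7a2, Slc40a1, Slc11a1, Slc25a20, Slc2a1, Slc16a1 and Slc16a3). Of 370 protein-coding Slc genes among the 38124 genes of the count table, 195 were kept, 168 stayed below the threshold and 60 of those 168 had no count in any library. Nearest to the threshold, the third highest library read 1.27 CPM for Slc22a20 and 1.41 for Slc13a2 inside it, and 0.984 for Slc4a3 and 0.965 for Slc25a29 outside it. Slc22a4, Slc36a2, Slc25a23, Slc27a6, Slc17a9, Slc6a13, Slc35b1, Slc35a5, Slc39a10, Slc41a1 and Slc5a3 are described below although they fall outside the naming rule, and were chosen after their values were seen. A further 9 genes outside the rule (Slc43a3, Slc29a2, Slc15a2, Slc13a2, Slc13a3, Slc20a1, Slc20a2, Slc26a1 and Slc26a2) were added, also after their values were seen, to complete small classes. Of the 195 genes, 191 encode transporters, and 4 carry the prefix without being transporters (Slc9a3r1, Slc9a3r2, Slc7a6os and Slc4a1ap). They were sorted into 16 classes by transported substrate, and all 195 had enough counts to be tested.

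A macrophage takes up amino acids, sugars, nucleosides and metal ions for its own synthesis, and it also exports or recycles what it digests: lysosomal carriers return amino acids, nucleosides and peptides from ingested material to the cytosol. Most carriers are secondary active transporters, which use the sodium or proton gradient, or facilitative ones, which follow the concentration gradient of the substrate. In the airspace these cells also live with surfactant lipid, inhaled metal and the iron and zinc withheld from microbes.

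The cells were alveolar macrophages of C57B/6 mice aged 8 to 14 weeks, washed from the airspaces and sorted by flow cytometry. Resident cells, sorted as CD11c+CD11b-, came from untreated mice (day 0) and from mice on days 3, 6, 9 and 12 after 20 ng of lipopolysaccharide (LPS, bacterial endotoxin) in 50 µL of saline had been put into the trachea. Recruited cells, which enter the lung from the blood after injury and carry the opposite sort markers, came from days 3, 6, 9 and 12 only, so no untreated recruited group was analysed here. Each of the 9 groups had 3 libraries. The labels do not say whether the 3 came from separate mice, so p-values measure only the spread between these libraries. In bulk RNA of a sorted gate, a lower value can come from fewer cells of a kind or from less RNA per cell, and these cannot be told apart.

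Libraries held 11093216 to 18299674 counts (median 14859352), and the 195 genes took 1.13% to 1.31% of them. The labels fitted the markers: over the mean of days 3 to 12, all 8 resident markers (among them Siglecf and Marco) were called lower and all 8 recruited markers (among them Ccr2 and Ly6c2) higher in recruited cells. On day 12 alone, 7 of the 8 resident markers were called lower. The 8 recruited markers summed to 46.6 to 54.2 CPM in untreated resident cells, 398 to 652 in resident cells of day 3 and 6032 to 26752 in recruited cells, with no marker at 0 in a whole group. The sort-gate gene Itgam (CD11b) read 5.06 to 10.3 CPM in untreated resident cells and 329 to 514 in resident cells of day 3. The other sort-gate gene, Itgax (CD11c), read 148 to 306 CPM in recruited cells of day 3 and 1263 to 1348 on day 12. In resident cells of day 12 Itgax read 2188 to 2324 CPM. Markers of neutrophils summed to 43.7 to 64.6 CPM in untreated resident cells (Ly6g and Camp at 0), 128 to 150 on day 3 and 189 to 502 in recruited cells of day 3. T and NK cell markers summed to 1.03 CPM or less in untreated resident cells (Cd3d, Trac and Trbc2 at 0), 5.67 to 14.1 on day 3 and 53.5 to 101 in recruited cells of day 3, and epithelial markers to 72.1 to 207 in resident and 12.9 to 56.5 in recruited cells. The part of other cells in the results was not tested, nor which cells carry the epithelial markers. A set of 4 libraries stood apart: resident day 9 replicate 2, resident day 12 replicate 1, recruited day 9 replicate 2 and recruited day 12 replicate 1, whose column numbers in the deposited table of unassigned reads run from 12 to 18. Each came out highest of its group for the same 53 of the 195 genes and lowest for 25 (40%, against 27.2% of all genes tested). Recruited markers summed to 210 and 272 CPM (resident) and 26752 and 24307 (recruited), against 90.1 to 123 and 6032 to 10961 in fellow libraries. T and NK markers summed to 2.79 and 4.9 and to 115 and 142, against 1.57 to 3.31 and 30.3 to 38. Neutrophil markers summed to 118 and 133 and to 172 and 146, against 41.3 to 50.5 and 145 to 270. The part of these markers was not tested. Untreated replicate 1 lay outside both other untreated libraries by more than 1.5 times above for 18 of the 195 genes and below for 9 (13.8%, against 13.3% of all genes tested).

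In untreated resident cells, compared per kilobase of exon, the most abundant members were Slc25a5, the mitochondrial ATP/ADP carrier (273 CPM per kb), Slc6a6, which imports taurine (149), Slc48a1, which moves heme out of the lysosome (113), and Slc15a3, a lysosomal peptide and histidine carrier (86.5). Slc3a2, the shared heavy chain of several amino acid exchangers, followed at 75.0 CPM per kb. In recruited cells, averaged over days 3 to 12, Slc25a5 again led (213 CPM per kb), then Slc3a2 (114), the copper-transport protein Slc31a2 (96.2) and Slc6a6 (91.4).

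The populations differed in most of these genes. Over the mean of days 3 to 12, recruited cells had more mRNA for the nucleoside importer Slc28a2, the glutamate importer Slc1a2, the lysosomal sulfate carrier Slc26a11, the zinc importer Slc39a4, the betaine carrier Slc6a12, the creatine carrier Slc6a8, the choline carrier Slc44a1 and the mitochondrial iron importer Slc25a37. Resident cells had more for the sodium/proton exchangers Slc9a2 and Slc9a4, the serotonin carrier Slc6a4, the organic ion family members Slc22a17 and Slc22a18, the zinc importers Slc39a2 and Slc39a12 and the riboflavin carrier Slc52a3. In edgeR's quasi-likelihood F test, with p-values adjusted by the Benjamini-Hochberg method over all 13599 genes tested (called means adjusted p under 0.05), 64 members were called higher and 60 lower in recruited cells, against 30.3% and 30% of all genes. That is 63.6% of the members against 60.3% of all genes tested, with a median absolute log2 difference of 0.36 for the members and 0.32 for all genes. Of the 195 members, 22 were called higher and 29 lower with no overlap between the libraries of the populations on any of the 4 days. Over the 13599 genes tested these counts were 1200 and 1455 (8.82% and 10.7%). Taken over called genes alone, they were 22 of 64 and 29 of 60 members, against 1200 of 4120 and 1455 of 4078 genes. Without the 4 libraries that stood apart, 65 were called higher and 65 lower.

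**Figure D1:**
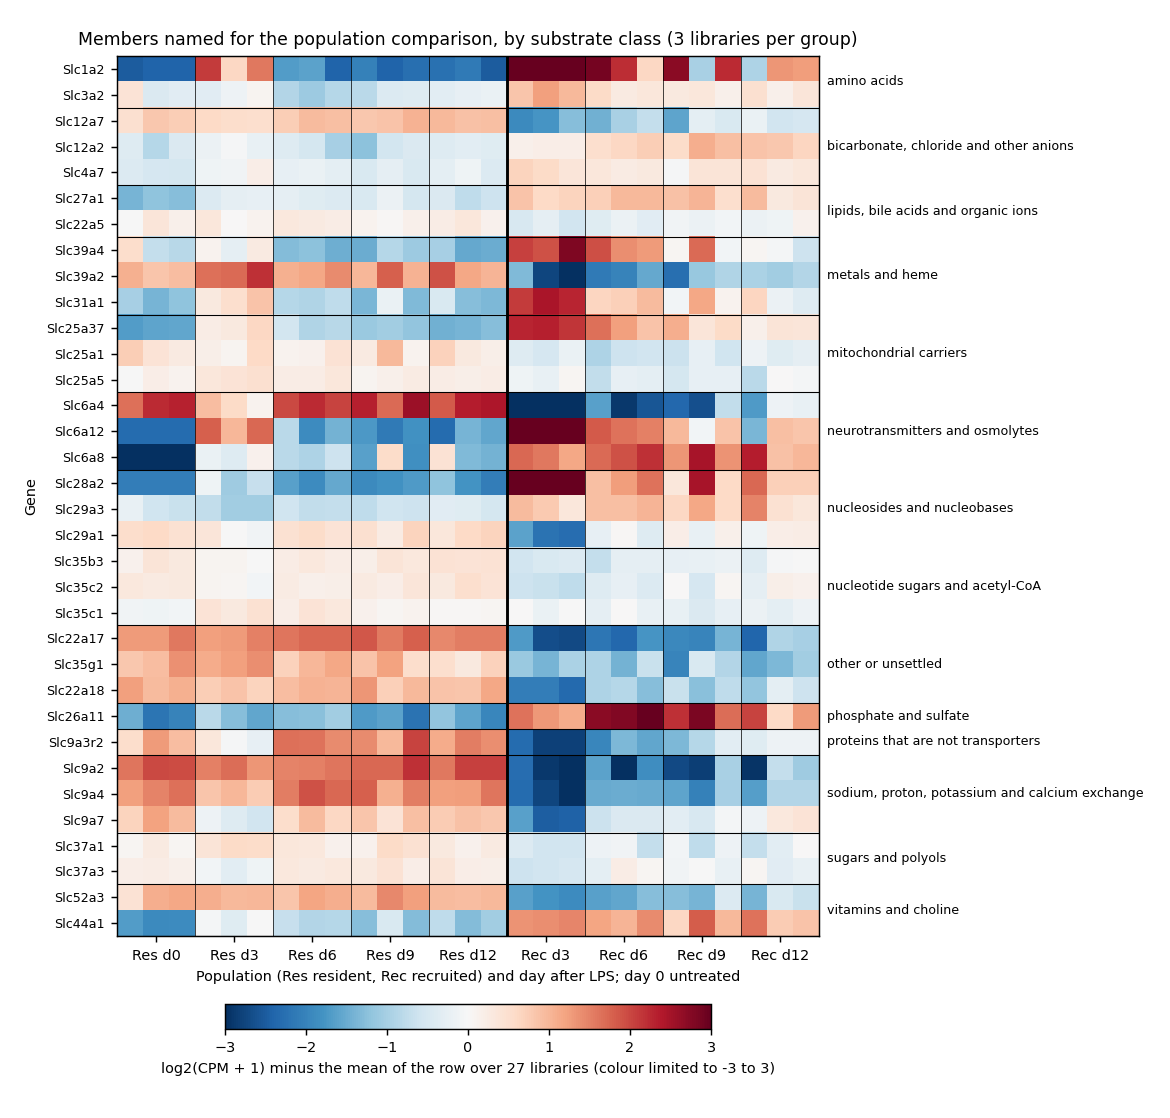
Level of 34 solute carriers named by a rule on the population comparison (rows, grouped by substrate class) in the 27 libraries (columns, grouped by population and day), as log2(CPM + 1) minus the row's mean, with colours limited at 3 in either direction. The rule took only called members without overlap between the populations on any day, so a split of the rows by population follows from their choice. Slc28a2 and Slc26a11 are among the rows high in recruited libraries, and Slc9a2 and Slc6a4 among those high in resident libraries. Slc1a2, Slc6a12, Slc6a8, Slc25a37 and Slc44a1 are lower in untreated cells than in resident cells of day 3.

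On single days the called members were 55 higher and 52 lower on day 3 (54.9%, against 46.6% of all genes), 41 and 45 on day 6 (44.1% against 35%), 37 and 35 on day 9 (36.9% against 32%) and 36 and 35 on day 12 (36.4% against 27.3%). With library totals as the only scaling, the day 3 split became 42 higher and 64 lower. That scaling moved the median of all genes by −0.12 on day 3, by 0.12 in the recruited comparison of day 9 with day 3 and by 0.12 in the change of the population difference described below.

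Resident cells changed most by day 3. Against untreated cells, 37 members were called higher and 27 lower on day 3 (32.8%, against 23.8% of all genes), 15 and 5 on day 6 (10.3% against 6.42%), 6 and 3 on day 9 (4.62% against 3.49%) and 3 and 0 on day 12 (1.54% against 1.3%). By day 12 only Slc6a8, Slc30a4 and Slc27a1 were called by edgeR. DESeq2 called 7 members higher and 3 lower, and 292 and 106 of all 13599 genes. In edgeR 31 of the 195 members had an unadjusted p under 0.05. The same was not counted over all genes, so whether lasting changes were more frequent among the members is not known. These 4 comparisons share the untreated libraries. Without untreated replicate 1 the day 3 counts were 28 and 17, and the number lower fell to 15 without untreated replicate 2, to 15 without untreated replicate 3, to 16 without day 3 replicate 2 and to 11 without day 3 replicate 3. With library totals alone the splits were 8 and 7 on day 6, 4 and 5 on day 9 and 3 and 2 on day 12. Single omissions took the later counts as low as 8 and 1 on day 6, 2 and 0 on day 9 and 1 and 0 on day 12.

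In recruited cells the most members were called on day 12, and days 6, 9 and 12 were not compared with each other. Against recruited cells of day 3, which all 3 comparisons share, 45 members were called higher and 33 lower on day 6 (40%, against 31.9% of all genes), 49 and 38 on day 9 (44.6% against 36.3%) and 63 and 40 on day 12 (52.8% against 39.3%). With library totals alone the day 9 split was 61 and 31. Without the 4 libraries that stood apart, the counts were 52 and 44 on day 9 and 59 and 44 on day 12. Over all genes tested they were then 2930 and 2720 on day 9 and 2975 and 2705 on day 12. Lists of cell markers also moved, given here for day 12 against day 3 unless another day is named. Of 7 neutrophil markers tested, 0 were called higher and 6 lower from day 3 to day 12 (median log2 change −2.98), and the list summed to 189 to 502 CPM on day 3 and 146 to 270 on day 12, where Ly6g was at 0. Of 8 epithelial markers tested, 4 were called higher and 0 lower (median 1.54), with sums of 12.9 to 24 CPM on day 3 and 43.4 to 56.5 on day 12. This list stood higher in resident cells, at 72.1 to 207 CPM, and which cells carry it was not tested. Resident markers had 4 of 8 called higher and 0 lower (median 2.38). On day 9 against day 3, all 4 red cell markers tested were called higher (median 5.45). They summed to 194 CPM in recruited day 9 replicate 3, against 0.0996 and 7.73 in its fellow libraries. Resident day 9 replicate 3 had 144 CPM, against 0 and 8.03. The part of all these markers in the course of the solute carriers was not tested.

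**Figure D2:**
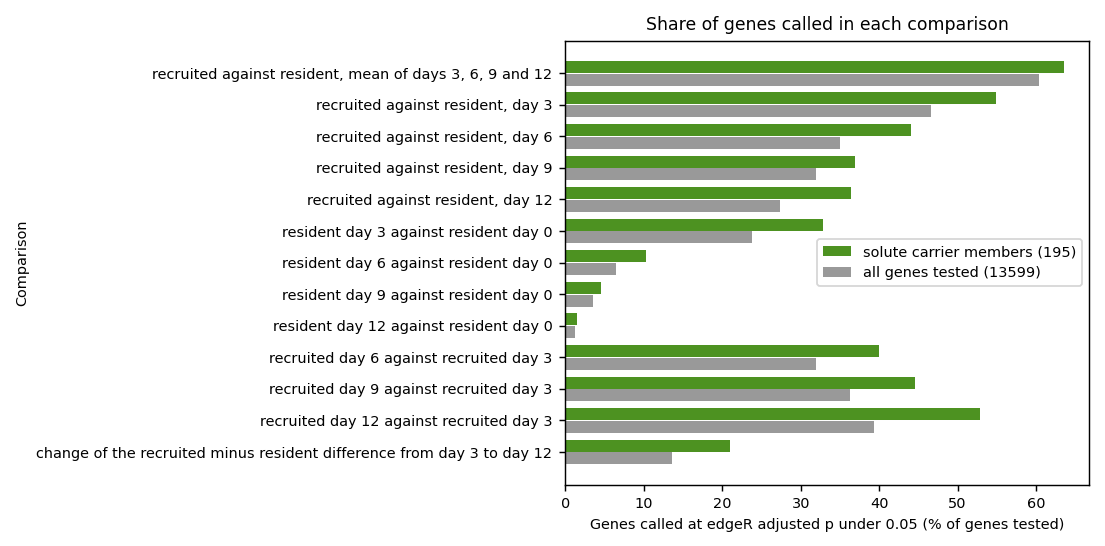
Percent of the 195 solute carriers and of all 13599 genes tested that were called (adjusted p under 0.05) in each of the 13 comparisons. The share of members lies above that of all genes in each comparison, by the widest margin in recruited cells of day 12 against day 3 (52.8% and 39.3%) and by the narrowest in resident cells of day 12 against day 0 (1.54% and 1.3%).

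By substrate, the counts differed between classes, many of which are small. Between the populations, 30.3% of all genes tested were called higher and 30% lower in recruited cells. Of 21 amino acid carriers, 13 were called higher and 4 lower (median log2 difference 0.49, against 0.02 over all genes tested). All 5 phosphate and sulfate carriers were called higher (median 0.45). Of 14 carriers of nucleotide sugars and acetyl-CoA, 1 was called higher and 5 lower, and of 10 sodium, proton, potassium and calcium exchangers 2 and 4. The numbers lower in these small classes lie near the share of all genes. Mitochondrial carriers, with 10 called in each direction of 37, and metal and heme carriers, with 6 higher and 7 lower of 26, also lie near it in both directions. In resident cells of day 3, where 13.3% of all genes tested were called higher and 10.5% lower, 5 nucleotide sugar carriers were called higher and 0 lower, while 3 exchangers of the Na+/H+ class were called lower and 0 higher. From day 3 to day 12 in recruited cells, where 19.8% of all genes were called higher and 19.5% lower, 5 of the 10 exchangers were called higher and 2 lower (median 0.60), and 4 of 8 lipid, bile acid and organic ion carriers higher and 1 lower (median 0.88). No test was made of a class as a whole.

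**Figure D3:**
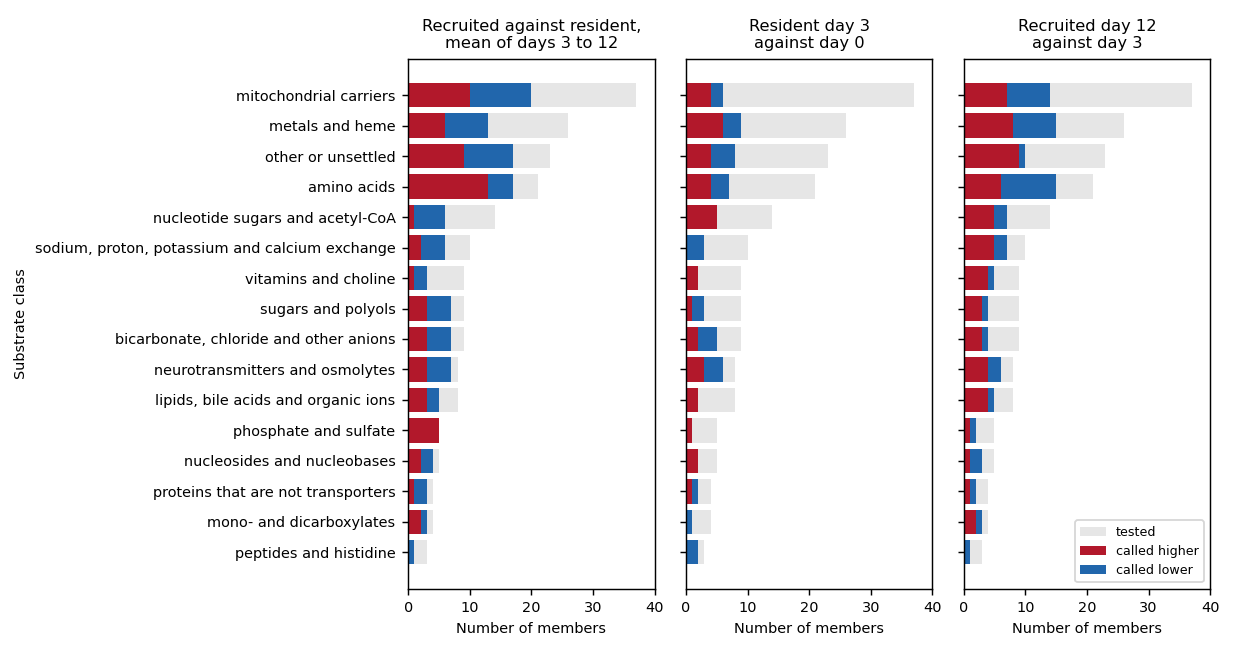
Number of members called higher (red), called lower (blue) and tested (whole bar) in each of the 16 substrate classes, as stacked bars for recruited against resident cells, resident day 3 against day 0 and recruited day 12 against day 3. In the first panel amino acid carriers show 13 higher and 4 lower, and nucleotide sugar carriers 1 and 5. Over all genes tested, 30.3% were higher and 30% lower in that comparison.

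Amino acid carriers were led by the glutamate importer Slc1a2. It removes glutamate from outside the cell by sodium-driven uptake, and read 0, 0.0766 and 0.0629 CPM in untreated cells, 23.4, 7.67 and 15.9 in resident cells of day 3, and 0.848 or less in every later resident library. In recruited cells it read 122, 65.6 and 43.9 CPM on day 3 and 1.98, 13.1 and 12.6 on day 12. Recruited libraries stood above the resident libraries of the same day on all 4 days, with an average log2 difference of 5.06 ± 0.54 (SE; adjusted p = 8.95e-08). In resident cells the 717 counts of day 3 against 2 of untreated cells gave a ratio of 362 (95% counting interval 99.8 to 2.99e+03, counting error only), and the rise was called (adjusted p = 0.000562). In recruited cells the log2 change from day 3 to day 12 was −3.04 ± 0.78 (adjusted p = 0.00412), and −2.06 with the run of column numbers as a covariate. Its relative Slc1a3, also a glutamate and aspartate importer, went the other way: 3.83 to 6.49 CPM in untreated cells, 0.834 to 1.07 in resident cells of day 3 and 0.973 or less in all recruited libraries. The population difference was −3.76 ± 0.48 (adjusted p = 4.1e-07), −4.45 without recruited day 3 replicate 1 and −5.06 without recruited day 9 replicate 3.

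The heavy chain Slc3a2 and its partners did not move together. Slc3a2 read 496, 652 and 550 CPM in recruited cells of day 3 against 219, 248 and 296 in resident cells of that day, with no overlap on any day (log2 difference 0.97 ± 0.09, adjusted p = 1.94e-09). Its partner Slc7a5, which exchanges large neutral amino acids such as leucine, read 33, 39.8 and 21.6 CPM in recruited cells of day 3 against 69.1, 68.7 and 57 in resident cells. Over the 4 days that difference was not called (−0.42 ± 0.23, adjusted p = 0.131), while the fit with the replicate number as a block called it (−0.53, adjusted p = 0.00771). A different partner, Slc7a8, which carries neutral amino acids, read 443, 540 and 459 CPM in recruited cells of day 3 and 179, 83.7 and 87.6 on day 12, a fall (log2 −2.04 ± 0.35, adjusted p = 0.0001). In resident cells Slc7a8 lay between 49.6 and 161 CPM throughout, and the average population difference was 1.15 ± 0.17 (adjusted p = 6.87e-06).

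Slc7a11, the cystine/glutamate exchanger that supplies cystine for glutathione, pairs with the same heavy chain. Its promoter is printed because the gene fell in recruited cells after day 3 and is a known target of the amino acid response. The window is the 250 bases before the RefSeq start of Slc7a11 at chr3:50443614-50443863 (GRCm38.p6, minus strand), written 5′ to 3′ in the direction of transcription, with matches to TGATGCAA on either strand in capitals.

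Slc7a11: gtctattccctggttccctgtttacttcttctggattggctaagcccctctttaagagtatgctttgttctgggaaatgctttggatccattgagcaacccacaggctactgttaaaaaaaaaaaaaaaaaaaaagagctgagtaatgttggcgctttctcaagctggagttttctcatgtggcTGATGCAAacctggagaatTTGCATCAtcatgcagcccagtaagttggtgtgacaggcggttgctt

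The 8 letters TGATGCAA, a composite site of CCAAT-enhancer-binding and ATF proteins, were found in 2 places, 1 on each strand, and these end 59 and 40 bases before the start. Windows of the same length held them in 0.791% of 32851 RefSeq promoters. Among the 198 windows of members, 3 held them, from 3 of the 147 members with a window (Slc7a11, Slc7a7 and Slc50a1). A match is a description of letters and no binding was measured. Slc7a11 read 479, 164 and 139 CPM in untreated cells, 161, 208 and 321 in resident cells of day 3 and 68.3 to 110 on day 6. In recruited cells it read 429, 659 and 529 CPM on day 3, 185, 153 and 134 on day 6 and 87.8, 90.8 and 107 on day 12. The recruited libraries of day 3 lay above all those of day 12, with a log2 change of −2.50 ± 0.41 (adjusted p = 5.49e-05). In resident cells the call on day 6 (−1.50 ± 0.39, adjusted p = 0.0258) rested on untreated replicate 1, without which it was −0.71 (adjusted p = 0.288), and it was also lost without each of the 3 libraries of day 6. The average population difference, 0.51 ± 0.19 (adjusted p = 0.0269), lost its call without resident day 3 replicate 1, resident day 6 replicate 2, resident day 12 replicate 3 or recruited day 3 replicate 2 (adjusted p 0.0505 to 0.0523).

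Other amino acid carriers differed in both directions. The lysosomal proton-coupled carrier Slc36a1 read 259, 315 and 361 CPM in recruited cells of day 3 against 147, 160 and 186 in resident cells (average log2 difference 0.78 ± 0.12, adjusted p = 5.31e-06). Slc43a2, a neutral amino acid facilitator, was higher in recruited than in resident cells by 0.73 ± 0.14 (adjusted p = 8.14e-05), the cationic carrier Slc7a1 by 0.68 ± 0.16 (adjusted p = 0.00104) and the system A carrier Slc38a2 by 0.49 ± 0.11 (adjusted p = 0.000696), each with overlap on at least 1 day. The aromatic amino acid carrier Slc16a10 was lower (−0.61 ± 0.08, adjusted p = 7.32e-07). The arginine sensor and carrier of the lysosome, Slc38a9, was higher by 0.20 ± 0.07 (adjusted p = 0.0212), a call lost with library totals as the only scaling (adjusted p = 0.0671), and it rose in recruited cells from 21.6 to 22.8 CPM on day 3 to 35.8 to 40.9 on day 12 (log2 0.75 ± 0.14, adjusted p = 0.000217). The glutamine importer Slc1a5 read 76.2 to 85.4 CPM in untreated cells and 105 to 121 in resident cells of day 3 (0.52 ± 0.16, adjusted p = 0.0188), a call lost without untreated replicate 1 or 3 or day 3 replicate 3. Slc36a2, a relative of Slc36a1, varied widely within groups: 22.5, 29 and 115 CPM in recruited cells of day 6 and 11.9, 211 and 54.2 on day 9. Its average population difference was 3.48 ± 0.68 (adjusted p = 0.000193), 4.11 without resident day 9 replicate 2 and 4.09 without resident day 12 replicate 1.

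Genes of the amino acid response, a stress programme that raises amino acid synthesis and uptake, were not uniform. Of 14 such genes tested, 7 were called higher and 5 lower in recruited cells, against 30.3% and 30% of all genes. In resident cells of day 3 the counts were 2 and 2, against 13.3% and 10.5% of all genes. Asns, which makes asparagine, was higher in recruited cells (log2 difference 1.75 ± 0.19, adjusted p = 4.61e-08), and Phgdh, the first enzyme of serine synthesis, lower (−2.79 ± 0.32, adjusted p = 2.61e-07). A list of 12 genes around the oxidative stress factor NRF2, of which Slc7a11 is a textbook target, held NRF2 itself (Nfe2l2), its inhibitor Keap1 and 10 targets such as Nqo1. In resident cells of day 3, 0 of the 12 were called higher and 7 lower (10.5% of all genes were lower), Nfe2l2 among the 7. Without untreated replicate 1, in which the 12 genes summed to 6216 CPM against 3059 and 3055 in the other untreated libraries, 2 were called lower (Nqo1 and Gclc, against 8.76% of all genes). In recruited cells from day 3 to day 12, 0 were called higher and 6 lower (19.5% of all genes were lower), and the 6 included Nfe2l2 and Keap1. Both lists, like the classes, were chosen with earlier results of the same libraries known.

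Peptide carriers were 3 genes. Slc15a3 and Slc15a4 sit in endosomes and lysosomes, export bacterial peptides and histidine to the cytosol, and belong to the machinery around endosomal toll-like receptors. Slc15a3 read 483, 731 and 561 CPM in recruited cells of day 3 against 411, 394 and 382 in resident cells, and 361, 336 and 395 against 587, 617 and 627 on day 12. The order of the populations thus turned over, without overlap on either day: the difference was 0.58 (adjusted p = 0.000432) on day 3 and −0.74 (adjusted p = 7.93e-05) on day 12, and its change of −1.32 ± 0.17 was called (adjusted p = 3.59e-05). Slc15a4 read 115, 77.2 and 69.4 CPM in untreated cells and 64.3, 68.4 and 48.4 in resident cells of day 3 (−0.53 ± 0.15, adjusted p = 0.0151), a call lost without untreated replicate 1 or day 3 replicate 3. The plasma membrane peptide importer Slc15a2 read 4.47 to 8.42 CPM in untreated cells and 2.1 to 3 on day 3 (−1.41 ± 0.50, adjusted p = 0.0437, lost on leaving out any of 10 single libraries). Of 13 genes of microbial sensing, some endosomal (Tlr7, Tlr9 and Unc93b1 among them) and some cytosolic (Nod1, Nod2 and Cgas among them), 7 were called higher and 4 lower in recruited cells, against 30.3% and 30% of all genes. Tlr9, the sensor of bacterial DNA, had a mean of 83.3 CPM in recruited cells of day 3 and 6.65 in resident cells of that day (average log2 difference 4.21 ± 0.24, adjusted p = 2.24e-12).

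Metal carriers did not share a direction, and those of iron and copper are given first. Slc25a37 (mitoferrin) brings iron into mitochondria. It read 34.3, 36.4 and 37.5 CPM in untreated cells, 131, 136 and 172 in resident cells of day 3 and 40.4, 41.9 and 45.5 on day 12. Recruited cells had 548, 562 and 499 CPM on day 3 and 125, 147 and 143 on day 12. Within each population day 3 lay above every library of day 12, and recruited libraries lay above resident ones on each day. The average population difference was 1.87 ± 0.09 (adjusted p = 2.42e-14), the resident change to day 3 was 2.02 ± 0.18 (adjusted p = 2.19e-08) and the recruited change from day 3 to day 12 was −1.96 ± 0.17 (adjusted p = 8.49e-09).

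Slc11a2, which imports iron(II) and other divalent metals, had the same order at a lower level. It read 38, 21.9 and 20.6 CPM in untreated cells, 46.9, 53.9 and 61.5 in resident cells of day 3 and 104, 134 and 102 in recruited cells of day 3 (average population difference 1.24 ± 0.09, adjusted p = 4.15e-11). Slc31a1, the plasma membrane copper importer, read 29.9, 22.5 and 25.7 CPM in untreated cells, 74.1, 86.2 and 111 in resident cells of day 3 and 262, 338 and 300 in recruited cells of day 3. By day 12 it was at 23.2 to 44.2 CPM in resident and 46.5 to 94.7 in recruited cells. The population difference was 1.46 ± 0.17 (adjusted p = 3.1e-07), the resident change to day 3 was 1.79 ± 0.35 (adjusted p = 0.000974) and the recruited change from day 3 to 12 was −2.21 ± 0.35 (adjusted p = 4.34e-05). Slc31a2, its endosomal relative, rose in resident cells from 54.9 to 71.5 CPM to 167 to 188 on day 3 (1.47 ± 0.17, adjusted p = 1.55e-06) and fell in recruited cells from 303 to 336 CPM to 127 to 135 (−1.31 ± 0.17, adjusted p = 1.65e-06). Beside these rises, and those of Slc1a2, Slc6a8, Slc6a12, Slc28a2, Slc27a1 and Slc44a1, in resident cells of day 3 stand the recruited markers, of which 3 of 8 were called higher on day 3 and 0 lower, and their part was not tested.

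Zinc carriers went in both directions. Slc30a1 exports zinc across the plasma membrane and is, with the metallothioneins, a known target of the zinc-sensing factor Mtf1. Its promoter is printed because Slc30a1 fell in resident cells of day 3, as did the metallothionein Mt1. The window is the 250 bases before the RefSeq start at chr1:191906531-191906780 (GRCm38.p6, plus strand), 5′ to 3′, with the match to the metal response core TGCACNC, on the opposite strand, in capitals.

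Slc30a1: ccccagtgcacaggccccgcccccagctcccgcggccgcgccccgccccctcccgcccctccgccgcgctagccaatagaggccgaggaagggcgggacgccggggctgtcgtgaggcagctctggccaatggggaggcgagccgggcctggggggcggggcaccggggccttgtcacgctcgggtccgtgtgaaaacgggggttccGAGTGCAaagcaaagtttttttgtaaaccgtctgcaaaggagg

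The core TGCACNC was found 1 time, ending 37 bases before the start, and a variant core, TGCGCNC, 0 times. Both strands were searched. The cores differ in 1 letter, so no match of one is a match of the other. They occurred in 10.4% and 12.5% of the 32851 promoter windows. Among the 198 windows of members, 20 and 31 held them, from 19 and 29 of the 147 members with a window. Slc30a1 read 59.5, 26 and 25.1 CPM in untreated cells, 9.39, 7.26 and 6.99 in resident cells of day 3 and 13.9 to 16.8 on day 6. All untreated libraries lay above all those of day 3 and day 6. The log2 change to day 3 was −2.23 ± 0.32 (adjusted p = 3.8e-05). On day 6 it was −1.26 ± 0.31 (adjusted p = 0.0149) and on day 9 −1.28 ± 0.31 (adjusted p = 0.0215), and without untreated replicate 1 these became −0.73 and −0.74 and were not called. Single omissions of day 6 replicate 2 or 3, or of day 9 replicate 2 or 3, also ended those calls.

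The zinc-binding metallothioneins, which are no solute carriers, were also called lower in resident cells of day 3 than in untreated cells. Mt1 read 1629, 546 and 572 CPM in untreated cells and 302, 211 and 208 in resident cells of day 3 (log2 −1.93, edgeR adjusted p = 0.00224), and −1.22 without untreated replicate 1 (adjusted p = 0.0236). In recruited cells of day 3 it read 66.3, 52.2 and 56.3 CPM, and the population difference was −2.07 (adjusted p = 3.31e-08). Mt2 read 790, 233 and 252 CPM in untreated cells, 127, 98.8 and 96.6 in resident cells of day 3 and 17.6, 10.8 and 11.3 in recruited cells of day 3. Its resident change, −1.98 (adjusted p = 0.0218), was −1.17 and not called without untreated replicate 1 (adjusted p = 0.166). On day 3 Slc30a1 itself did not follow the population difference of the metallothioneins: it read 16.5, 15.3 and 12.4 CPM in recruited cells, above the resident libraries. Its difference went from 0.90 on day 3 to −0.61 on day 12, the sign of the metallothioneins. That change was called (−1.51 ± 0.45, edgeR adjusted p = 0.0288), and the average difference over the days was not (−0.30 ± 0.16, adjusted p = 0.105). The promoter of Mt1 held TGCACNC 1 time and that of Mt2 2 times, with TGCGCNC 0 and 1 times.

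Slc30a4, which loads zinc into vesicles, did the reverse of Slc30a1 and stayed high. It read 0.707, 1.15 and 1.95 CPM in untreated cells, 7.81, 9.26 and 11 in resident cells of day 3 and 5.79, 9.05 and 7.22 on day 12. No untreated library reached any later resident library. The changes against untreated cells were 2.87 ± 0.27 (adjusted p = 8.31e-08) on day 3, 2.83 ± 0.27 on day 6, 2.45 ± 0.27 on day 9 and 2.52 ± 0.27 (adjusted p = 9.33e-06) on day 12. In recruited cells it read 7.84, 5.89 and 5.9 CPM on day 3 and 11.9, 15.4 and 13.6 on day 12 (1.06 ± 0.23, adjusted p = 0.00094).

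**Figure D4:**
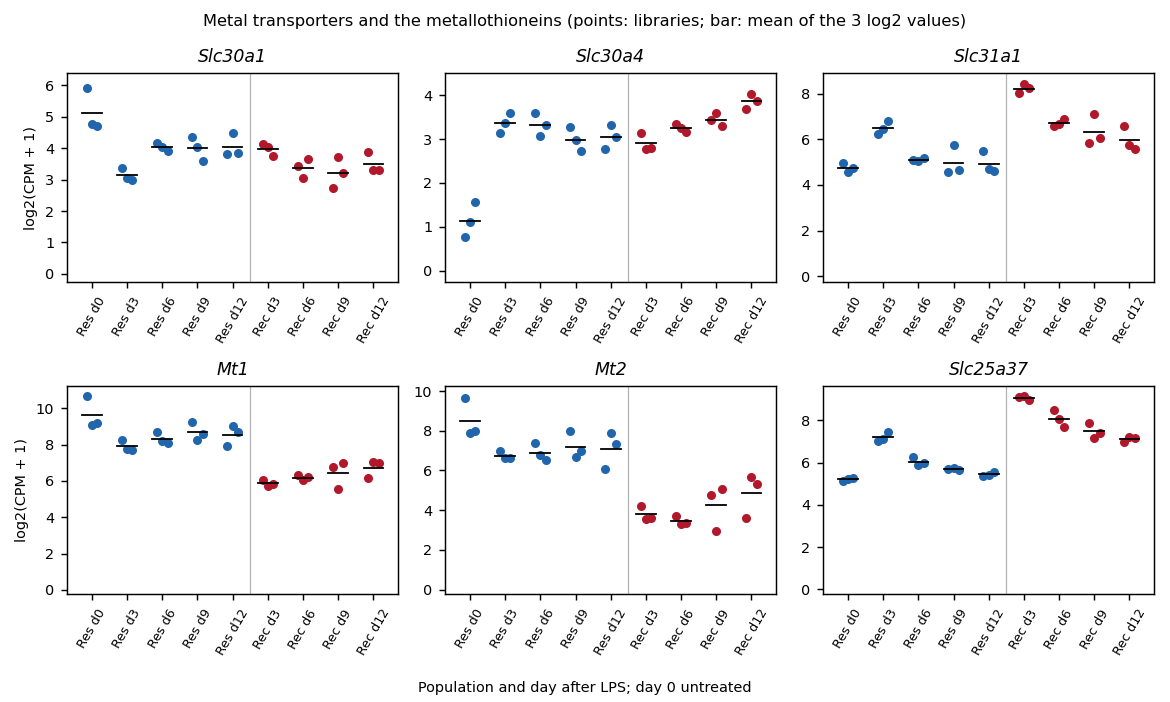
Level, as log2(CPM + 1), of the zinc exporters Slc30a1 and Slc30a4, the copper importer Slc31a1, the metallothioneins Mt1 and Mt2 and the mitochondrial iron importer Slc25a37 in each library (points) by day, with resident cells in blue, recruited cells in red and a bar at the mean of the 3 log2 values. Slc30a1, Mt1 and Mt2 are lower in resident cells of day 3 than in untreated cells, Slc30a4 is higher on all 4 later days, and Slc31a1 and Slc25a37 peak on day 3 in both populations.

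The zinc importers of the Slc39 family were divided between the populations. Slc39a2 read 93.8, 79 and 84.8 CPM in untreated cells and 141, 147 and 205 in resident cells of day 3, against 17.2, 5.66 and 4.73 in recruited cells of day 3 and 22.6, 20.8 and 23.6 on day 12 (population difference −3.12 ± 0.21, adjusted p = 4.24e-11). Slc39a12 lay between 3.14 and 7.43 CPM in resident cells and at 2.26 or less in recruited cells (−3.28 ± 0.25, adjusted p = 6.48e-11; −4.09 without recruited day 3 replicate 1). Slc39a4 was the opposite: 12, 10.8 and 20.7 CPM in recruited cells of day 3 against 2.36, 1.58 and 2.78 in resident cells (average difference 3.44 ± 0.36, adjusted p = 2.52e-08). Slc39a4 fell in recruited cells to 1.04 to 2.25 CPM by day 12 (−3.05 ± 0.61, adjusted p = 0.000362). Slc39a10, a plasma membrane zinc importer, rose in recruited cells from 42.5, 36.9 and 38.8 CPM to 119, 132 and 119 (1.65 ± 0.13, adjusted p = 9.31e-10). Slc39a14, which also imports iron, was not called between the populations (−0.05 ± 0.08, adjusted p = 0.641) and fell in recruited cells from 105 to 152 CPM on day 3 to 58.3 to 87 on day 12 (−0.70 ± 0.16, adjusted p = 0.00106). Slc48a1, the lysosomal heme carrier, was not called between the populations (−0.27 ± 0.13, adjusted p = 0.067), but was with the replicate block (−0.34, adjusted p = 0.0159). The magnesium carrier Slc41a1 read 16.9 to 23.7 CPM in recruited and 36.2 to 44.4 in resident cells of day 3 (average −1.07 ± 0.09, adjusted p = 6.69e-10).

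Mitochondrial carriers other than mitoferrin were called in both directions. The citrate exporter Slc25a1, which feeds lipid synthesis, read 53.8, 49.3 and 61.5 CPM in recruited and 79.8, 74.2 and 107 in resident cells of day 3 (average −0.82 ± 0.10, adjusted p = 2.18e-07). The ATP/ADP carriers Slc25a5 and Slc25a4 were lower in recruited cells by log2 −0.53 ± 0.08 (adjusted p = 3.02e-06, no overlap on any day) and −0.32 ± 0.07 (adjusted p = 0.000251). Slc25a4 also rose in resident cells of day 3, from 88.5 to 97.7 CPM to 123 to 139 (0.51 ± 0.13, adjusted p = 0.00758). Slc25a23, a calcium-regulated ATP-Mg/phosphate carrier, read 0.27, 0.785 and 0 CPM in recruited cells of day 3 and 3.5, 5.17 and 4.58 on day 12 (3.66 ± 0.53, adjusted p = 9.22e-06; 4.91 without recruited day 3 replicate 2).

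Sodium/proton exchangers set the pH of the cytosol and of endosomes. Of their class of 10, 4 were called lower and 2 higher in recruited cells, against 30% and 30.3% of all genes. The largest population differences in the class were those of Slc9a2 and Slc9a4, both higher in resident cells. Slc9a2 read 28.9, 37.4 and 37.1 CPM in untreated cells, 23.3 to 43.6 in all later resident libraries and 1.01, 0.314 and 0.146 in recruited cells of day 3 (average population difference −4.51 ± 0.34, adjusted p = 4.01e-10). Slc9a4 read 160, 189 and 212 CPM in untreated cells against 12.7, 9.11 and 7.65 in recruited cells of day 3 and 20.7, 36.1 and 36.2 on day 12 (−3.11 ± 0.13, adjusted p = 7.55e-15). Neither gene's recruited libraries reached a resident library on any day. The exchanger Slc9a7 was lower in recruited than in resident cells, with a log2 difference of −1.21 ± 0.11 (adjusted p = 8.74e-10), and it fell in resident cells of day 3 (−1.35 ± 0.21, adjusted p = 6.43e-05). Slc9a9, an endosomal exchanger, read 18.8, 25.6 and 26.3 CPM in untreated cells, 7.42, 6.59 and 3.2 in resident cells of day 3 and 17.6 to 26.8 on day 12. Recruited cells had 4.59, 3.69 and 6.12 CPM on day 3 and 30.4, 28.8 and 24 on day 12. Both populations were thus low on day 3: the resident change was −2.05 ± 0.33 (adjusted p = 0.000141), the recruited change to day 12 was 2.53 ± 0.34 (adjusted p = 4.24e-06) and the average population difference was not called (0.07 ± 0.16, adjusted p = 0.707).

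Carriers of neurotransmitters and osmolytes included Slc6a8, 1 of the 3 members still called in resident cells of day 12. It imports creatine, the substrate of the phosphocreatine energy store, and read 4.82, 2.07 and 1.51 CPM in untreated cells, 43.7, 38.3 and 54.9 in resident cells of day 3 and 68.1, 19.4 and 18.2 on day 12. Recruited cells had 169, 152 and 114 CPM on day 3 and 260, 93.2 and 101 on day 12. Every later resident library exceeded every untreated one, and recruited libraries exceeded resident ones on each day. The population difference was 2.23 ± 0.31 (adjusted p = 2.71e-06), and the resident change to day 3 was 4.02 ± 0.72 (adjusted p = 0.000492), or 4.68 without untreated replicate 1. On day 12 the resident change was 3.64 ± 0.72 (adjusted p = 0.0112), 4.31 without untreated replicate 1, and not called without untreated replicate 2 (3.48), untreated replicate 3 (3.33) or day 12 replicate 1 (2.70, adjusted p = 0.111), the last being 1 of the 4 libraries that stood apart. Without those 4 libraries it was 2.71 (adjusted p = 6.07e-05).

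Slc6a12, a carrier of betaine and GABA, had 0 counts in all 3 untreated libraries and read 16, 8.76 and 15.2 CPM in resident cells of day 3, at least 203-fold higher against a floor of 3 counts over the untreated group (adjusted p = 1.53e-05 by edgeR). In recruited cells it read 55.5, 52.8 and 49 CPM on day 3 and 0.898, 8.24 and 7.75 on day 12 (log2 −3.19 ± 0.56, adjusted p = 0.000168). Its relative, the GABA carrier Slc6a13, was at 0 in untreated cells, 0.296 to 0.46 CPM in resident cells of day 3 and 1.97 to 2.12 in recruited cells of day 3. Slc6a13 reached 1 CPM in 3 libraries only through recruited cells of day 3, so its higher level there followed from how it was selected. Slc6a4, the serotonin carrier, went the other way. It read 108, 162 and 170 CPM in untreated cells, 65.4, 50.4 and 36.1 in resident cells of day 3, 2.16, 0.707 and 0.51 in recruited cells of day 3 and 9.7, 30.1 and 28.9 on day 12. The population difference was −4.21 ± 0.28 (adjusted p = 6.32e-11) and the recruited change to day 12 was 4.31 ± 0.64 (adjusted p = 2.29e-05), or 5.23 without recruited day 3 replicate 1. The fall in resident cells of day 3 (−1.53 ± 0.47, adjusted p = 0.0231) lost its call without untreated replicate 2 or 3 or without day 3 replicate 2 or 3 (adjusted p 0.0618 to 0.112). Recruited day 3 replicate 1 also read 11.8 CPM for the resident marker Siglecf against 2.36 and 1.82 in its fellow libraries, while its 8 resident markers summed to 2516 CPM against 3768 and 3259. The vesicular polyamine carrier Slc18b1 lay at 3.08 to 6.83 CPM in resident and 0.0785 to 1.26 in recruited libraries (−3.28 ± 0.22, adjusted p = 7.27e-12). The taurine importer Slc6a6, the most abundant of the class per kilobase, read 1451, 1189 and 1152 CPM in untreated cells, 833, 847 and 807 in resident cells of day 3 and 531, 561 and 576 in recruited cells of day 3 (average population difference −0.52 ± 0.10, adjusted p = 0.000141). Its fall in resident cells of day 3 (−0.61 ± 0.21, adjusted p = 0.0348) lost its call on leaving out any 1 of the 6 libraries compared.

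**Figure D5:**
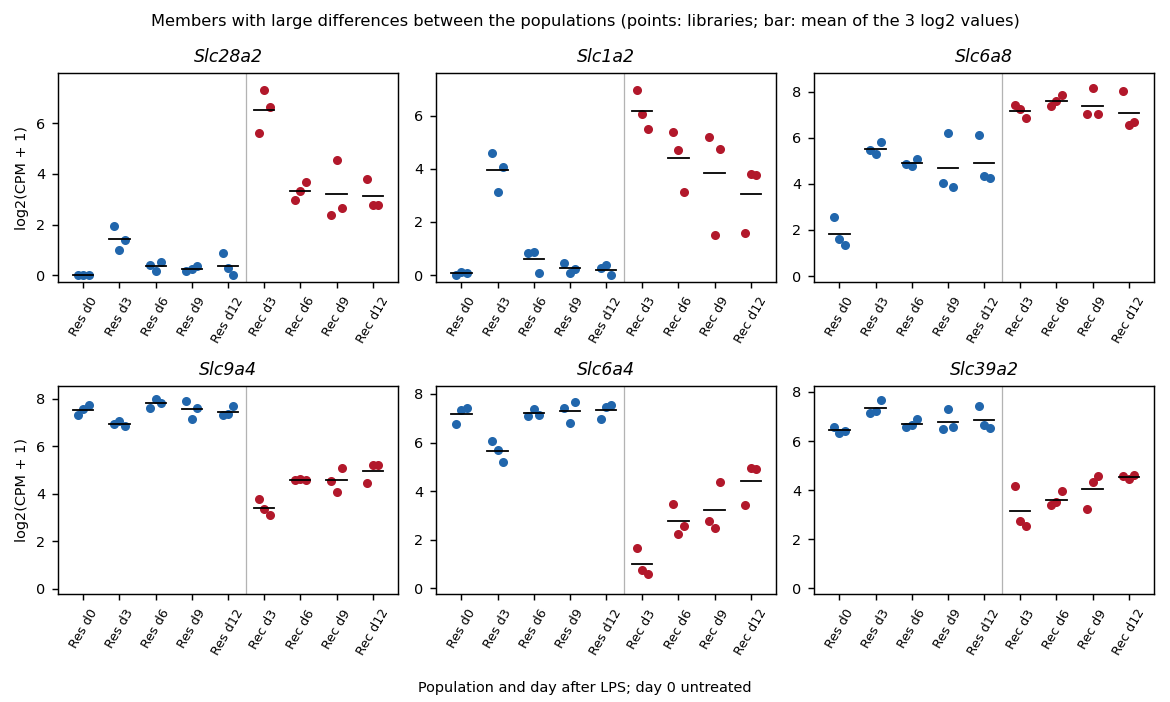
Level, as log2(CPM + 1), of Slc28a2, Slc1a2, Slc6a8, Slc9a4, Slc6a4 and Slc39a2 in each library (points) by day, with resident cells in blue, recruited cells in red and a bar at the mean of the 3 log2 values. The first 3 genes are higher in recruited libraries and lowest in untreated cells, and the last 3 are higher in resident libraries, with every recruited library of day 12 above those of day 3.

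Nucleoside carriers included Slc28a2, a sodium-driven importer of purine nucleosides such as adenosine and guanosine. It had 0 counts in untreated cells and read 2.82, 1 and 1.6 CPM in resident cells of day 3, at least 27.6-fold higher (adjusted p = 0.00927). Recruited libraries read 48.2, 157 and 99.3 CPM on day 3, 6.81, 9.01 and 11.9 on day 6 and 12.8, 5.86 and 5.86 on day 12. Recruited day 3 lay above all other groups, and all recruited groups lay above the resident groups of the same day (average difference 5.20 ± 0.41, adjusted p = 2.88e-09). The recruited change to day 12 was −3.65 ± 0.61 (adjusted p = 0.000106), and −4.37 with the run of column numbers as a covariate. Slc29a1, the equilibrative nucleoside carrier of the plasma membrane, took the opposite course. It read 59.4, 38.3 and 36.7 CPM in recruited cells of day 3 and 166, 210 and 213 on day 12 (2.13 ± 0.18, adjusted p = 3.85e-09), against 169 to 290 in all resident libraries. Slc29a3, the lysosomal nucleoside exporter, read 188, 169 and 124 CPM in recruited and 58.2, 46.8 and 46.9 in resident cells of day 3 (average 1.51 ± 0.11, adjusted p = 9.02e-11). Slc43a3, a purine nucleobase importer, rose in resident cells from 14.7 to 18.1 CPM to 46.8 to 52.2 on day 3 (1.58 ± 0.27, adjusted p = 0.000178). Slc29a2, the fifth of the class, lay between 2.22 and 4.93 CPM in every library (population difference −0.04 ± 0.12, adjusted p = 0.768).

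Sugar carriers here exclude the glucose importer Slc2a1. Its neuronal relative Slc2a3 was low, at 0.127 to 3.04 CPM, and higher in recruited cells (1.03 ± 0.29, adjusted p = 0.00381). Slc2a6, a lysosomal hexose carrier, read 76.5, 127 and 89.9 CPM in recruited cells of day 3 and 44.2, 20.7 and 22.1 on day 12 (−1.76 ± 0.44, adjusted p = 0.00302), with an average population difference of 1.11 ± 0.22 (adjusted p = 0.000167). Slc37a2, a glucose 6-phosphate exchanger abundant in macrophages, was higher in recruited than in resident cells by 1.48 ± 0.24 (adjusted p = 1.88e-05), with 191, 150 and 166 CPM against 51.7, 56.9 and 68 on day 3. Slc37a1 and Slc37a3 of the same family were lower (−0.77 ± 0.10, adjusted p = 4.83e-07, and −0.39 ± 0.06, adjusted p = 4.94e-06). The inositol importer Slc5a3 fell in resident cells of day 3, from 22.7 to 25.1 CPM to 6.57 to 12.7 (−1.22 ± 0.37, adjusted p = 0.0192), and lost its call without day 3 replicate 3.

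Nucleotide sugar carriers supply the Golgi and endoplasmic reticulum for glycan synthesis. Slc35c1, which imports GDP-fucose into the Golgi, rose in resident cells from 93 to 95.9 CPM to 126 to 140 on day 3 (0.50 ± 0.09, adjusted p = 0.000237) and was lower in recruited cells (−0.40 ± 0.04, adjusted p = 3.26e-08). Slc35b1, the ATP/ADP exchanger of the endoplasmic reticulum, rose from 49.8 to 52.1 CPM to 69.8 to 89.1 (0.64 ± 0.15, adjusted p = 0.00299). Slc35b3, a Golgi carrier of the sulfate donor PAPS, and Slc35c2 were lower in recruited than in resident cells, with log2 differences of −0.58 ± 0.06 (adjusted p = 6.73e-09) and −0.51 ± 0.06 (adjusted p = 1.79e-07), without overlap on any day. Slc35a5 was the 1 member of the class called higher in recruited cells (0.30 ± 0.09, adjusted p = 0.00668).

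Among carriers of lipids and carboxylates, Slc27a1, a fatty acid transport protein with acyl-CoA synthetase activity, read 44, 49.8 and 47.3 CPM in untreated cells, 87.8, 96.2 and 98.9 in resident cells of day 3, 86.1, 68.1 and 74.9 on day 12 and 213, 177 and 187 in recruited cells of day 3. The population difference was 1.16 ± 0.08 (adjusted p = 7.44e-12) and the resident changes were 1.00 ± 0.15 on day 3 (adjusted p = 6.53e-05) and 0.70 ± 0.15 on day 12 (adjusted p = 0.0181). The day 12 call was lost without untreated replicate 1, 2 or 3 or without day 12 replicate 1 or 3 (adjusted p 0.0508 to 0.193). Its relative Slc27a4 fell in recruited cells from 78.2, 80.3 and 93.4 CPM to 45.4, 42.4 and 41.7 (−0.96 ± 0.10, adjusted p = 1.25e-07). Slc27a6, a further member of that family, had 1 count in recruited cells of day 3 and 140 on day 12, a ratio of 138 (95% counting interval 24.4 to 5.49e+03). It reached 1 CPM in 3 libraries only through the later recruited groups. A large ratio against a group near 0 therefore followed from how it was selected. The organic cation and carnitine carriers differed in direction: Slc22a4 was higher in recruited cells (1.97 ± 0.32, adjusted p = 1.93e-05) and Slc22a5 lower (−0.44 ± 0.06, adjusted p = 1.33e-06). The monocarboxylate carrier Slc16a7 read 23.5, 26.6 and 31.3 CPM in untreated cells, 15.1, 17.8 and 11.6 in resident cells of day 3 and 8.24, 7.23 and 6.12 in recruited cells of day 3, rising there to 30.4, 28.8 and 24.1 on day 12 (1.94 ± 0.21, adjusted p = 1.39e-07). The dicarboxylate importers Slc13a3 and Slc13a2 were opposite, with 4.24 to 8.3 CPM in recruited and 1.42 to 2.42 in resident cells of day 3 for Slc13a3, and 0 counts in recruited against 52 in resident cells of day 3 for Slc13a2, at least 16.2-fold lower. Recruited groups held at most 18 counts of Slc13a2 (day 12), so it passed the 1 CPM threshold mainly through resident libraries.

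Among vitamin, phosphate and anion carriers, the choline carrier Slc44a1 read 9.77, 8.12 and 8.31 CPM in untreated cells, 32.2, 25.9 and 33.4 in resident cells of day 3 and 86.9, 89.5 and 94.6 in recruited cells of day 3. The 3 groups did not overlap, the resident change was 1.80 ± 0.29 (adjusted p = 0.000114) and the average population difference 2.02 ± 0.14 (adjusted p = 3.07e-11). The riboflavin carrier Slc52a3 was lower in recruited cells (−2.40 ± 0.13, adjusted p = 3.04e-13), at 7.21 to 8.71 CPM against 58.3 to 63.3 on day 3. The folate importer Slc19a1 rose in recruited cells from 5.89 to 7.23 CPM to 12.4 to 16 (1.10 ± 0.15, adjusted p = 3.6e-06). Slc26a11, a lysosomal sulfate carrier, lay between 0.348 and 2.56 CPM in all 15 resident libraries and read 18.3, 14.4 and 12.5 CPM in recruited cells of day 3, 40.2, 41.9 and 48.8 on day 6 and 24.6, 8.45 and 14.2 on day 12 (population difference 4.18 ± 0.22, adjusted p = 5.42e-13). The other 4 phosphate and sulfate carriers (Slc20a1, Slc20a2, Slc26a1 and Slc26a2) differed by 0.27 to 0.56 on the log2 scale, each with overlap on at least 1 day. The potassium/chloride cotransporter Slc12a7 was lower in recruited cells (−1.75 ± 0.12, adjusted p = 1.44e-11), and the sodium/potassium/chloride cotransporter Slc12a2 higher (1.36 ± 0.13, adjusted p = 5.93e-09).

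Of the members with other or unsettled substrates, Slc22a17, a receptor for the iron-binding protein lipocalin 2, read 26.5 to 41.4 CPM in all resident libraries and 0.801 to 5.24 in recruited ones (−3.91 ± 0.18, adjusted p = 4.32e-14). Slc22a18 read 14.6 to 23.6 against 0.947 to 7.05 CPM (−2.46 ± 0.12, adjusted p = 2.73e-14) and Slc35g1 6.55 to 15 against 0.548 to 3.45 (−2.49 ± 0.19, adjusted p = 1.16e-10). Slc46a3, a lysosomal carrier, read 23.5, 16.5 and 14.7 CPM in untreated cells and 9.85, 9.93 and 8.58 in resident cells of day 3, and in recruited cells 1.15, 1.73 and 1.46 on day 3 and 24.8, 13.3 and 16.7 on day 12. The recruited rise was 3.66 ± 0.33 (adjusted p = 8.77e-09), and the resident fall of −0.95 ± 0.27 (adjusted p = 0.0127) lost its call without untreated replicate 1 or day 3 replicate 3. The vesicular nucleotide carrier Slc17a9 rose in resident cells of day 3 (0.74 ± 0.18, adjusted p = 0.00515) and in recruited cells from 5.46 to 7.3 CPM to 10.2 to 17.1 on day 12 (1.26 ± 0.20, adjusted p = 2.26e-05). The scaffold proteins Slc9a3r1 and Slc9a3r2, which tether exchangers and are not carriers, were opposite: 0.55 ± 0.08 (adjusted p = 2.28e-06) and −3.42 ± 0.22 (adjusted p = 7.47e-12), the latter −4.46 without recruited day 3 replicate 1. Of 35 solute carriers that bear other symbols, 7 were called higher and 17 lower in recruited cells, against 30.3% and 30% of all genes. Slco2b1, an organic anion importer, was lower (−4.02 ± 0.25, adjusted p = 1.73e-11), and Slco3a1 of the same family higher (4.64 ± 0.17, adjusted p = 1.8e-15).

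The change of the recruited minus resident difference from day 3 to day 12 was tested with its sign, so a called change can be a narrower or a wider gap. It was called positive for 29 members and negative for 12 (21%, against 13.6% of all genes tested), and with the replicate block, which pairs the populations, for 39 and 24. The size of the difference was smaller on day 12 than on day 3 in 26 of the 29 and in 10 of the 12, a description that was not tested. These members were picked because their difference changed, and sizes were not counted this way over all genes. Of all genes tested, 46.6% were called between the populations on day 3 and 27.3% on day 12, so the count shows nothing particular to the members. Among members lower in recruited cells on day 3, Slc29a1 went from a difference of −2.12 to −0.44, Slc46a3 from −2.71 to 0.07 and Slc22a18 from −3.68 to −1.78. Slc9a4 moved from −3.64 to −2.50, so that most of the day 3 difference was still there on day 12. Slc16a7 crossed from −1.04 to 0.57 and Slc30a4 from −0.51 to 0.90, a wider gap on day 12. Of the members that were higher in recruited cells on day 3, Slc15a3 crossed to −0.74, also a wider gap, and Slc9a3r1 went from 1.10 to 0.13. The summed resident markers of recruited cells were 2516 to 3768 CPM on day 3 and 2771 to 9411 on day 12, and Siglecf read 20.5, 89.2 and 76 CPM in recruited cells of day 12. The part of cells sorted into the other gate was not tested.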

How the data were processed

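RNA of 27 sorted macrophage libraries was sequenced on an Ion Proton, with a stranded kit per the labels' protocols. The deposited values are whole-number counts of reads per gene, made by the authors with STAR 2.4.0a and HTSeq 0.6.0, per the submitters' processing notes; the sources used here do not give the strand option of the counting. Exons of 11 members overlap another gene on their own strand and those of 52 a gene on the other strand, so their counts are uncertain. Among the genes described above, the former include Slc39a2. The latter include Slc15a3 (1541 of 5491 exon bases), Slc11a2, Slc13a2, Slc25a37, Slc29a1, Slc30a1 and Slc30a4.

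The members and lists were chosen with earlier results of these data known. Counts were fitted with edgeR 4.0.16 (quasi-likelihood F test, trimmed mean of M-values scaling, 1 mean per group, 18 residual degrees of freedom) after a filter of 10 counts, which left 13599 genes, with Benjamini-Hochberg adjustment over all of them and 13 comparisons. CPM in the text are scaled with those factors. Genes were named by a rule: from each class up to 3 members with the largest called population difference, without overlap on any day and with 5 CPM or more, the 4 most raised and 4 most lowered per other comparison, and a set of well-known carriers. Not all genes so named are described: Slc38a1, Slc16a6, Slc25a10, Slc25a15, Slc39a8, Slc46a1, Slc4a7, Slc9a5 and Slc12a9 were left out. Slc34a2 and Slc4a1 of the set did not reach the 1 CPM threshold. The genes added outside the rule are listed at the start. Folds from a group at 0 use a floor of 3 counts over the group, and 95% intervals cover counting error only.

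Alternatives were other scalings, filters, DESeq2 1.42.0, a replicate block and single libraries left out. Replicate numbers paired the populations: same-numbered libraries of a day deviated together in 12 of 12 pairs (r 0.166 to 0.518), a pairing seen in the counts, which the labels do not state. They did not pair the days, with r above 0.1 in 14 of 48 pairs. Library depth was 11093216 to 18299674 counts.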

Additional observations from a re-analysis of the deposited data

Results flagged for a closer look

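The difference between recruited and resident cells was not the same on day 12 as on day 3 for the members below. The value is the log2 difference on day 12 minus that on day 3, with its SE and the adjusted p of the interaction term in edgeR. It was positive for Slc16a7 1.607 ± 0.288 (adjusted p = 0.000698), Slc18b1 2.474 ± 0.642 (adjusted p = 0.0124), Slc19a1 1.295 ± 0.207 (adjusted p = 0.000247) and Slc1a5 0.826 ± 0.219 (adjusted p = 0.0143). Positive values were also found for Slc22a18 1.899 ± 0.336 (adjusted p = 0.000613), Slc25a4 0.56 ± 0.188 (adjusted p = 0.0499), Slc29a1 1.685 ± 0.245 (adjusted p = 0.000104) and Slc30a4 1.41 ± 0.331 (adjusted p = 0.00621). Further positive values were Slc39a12 3.718 ± 0.813 (adjusted p = 0.00364), Slc39a2 1.725 ± 0.55 (adjusted p = 0.0421), Slc46a3 2.783 ± 0.421 (adjusted p = 0.000151) and Slc52a3 1.148 ± 0.347 (adjusted p = 0.0309). The remaining positive values included Slc6a4 2.634 ± 0.804 (adjusted p = 0.0351), Slc9a3r2 3.584 ± 0.753 (adjusted p = 0.00276), Slc9a4 1.141 ± 0.342 (adjusted p = 0.0298) and Slc9a7 1.305 ± 0.302 (adjusted p = 0.00552). It was negative for Slc15a3 −1.325 ± 0.173 (adjusted p = 3.59e-05), Slc25a33 −1.107 ± 0.356 (adjusted p = 0.0407), Slc27a4 −0.751 ± 0.144 (adjusted p = 0.00127) and Slc30a1 −1.512 ± 0.45 (adjusted p = 0.0288). Negative values were also found for Slc7a7 −0.829 ± 0.211 (adjusted p = 0.0111) and Slc9a3r1 −0.972 ± 0.223 (adjusted p = 0.00516). Leaving out single libraries ended the call of Slc25a33 and Slc25a4 in 17 cases each, of Slc39a2 in 13, of Slc6a4 in 9, of Slc52a3 in 8 and of Slc30a1 and Slc9a4 in 7 each. Without recruited day 3 replicate 1 the value was 6.97 for Slc39a12, 7.76 for Slc9a3r2 and 3.36 for Slc18b1.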

How the results depend on the processing

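Of 280 results on named genes, 215 kept their call and direction in every alternative run, and none changed direction. The call was lost in 25 without a filter on low counts, in 24 when only the libraries compared were fitted, in 9 with library totals alone, in 7 with the replicate block, in 5 without the libraries numbered 12 to 18, in 2 with DESeq2 size factors, in 2 with the run of column numbers as a covariate and in 0 with DESeq2 or a filter of 1 CPM. Leaving out 1 library ended a call in 342 fits, made 12 and left 7206 as they were. Members called higher and lower over single omissions numbered 60 to 66 and 58 to 64 for the populations over all days, 42 to 54 and 47 to 55 on day 3, 34 to 44 and 37 to 47 on day 6, 30 to 44 and 30 to 37 on day 9 and 23 to 42 and 24 to 37 on day 12. For resident cells against day 0 they were 25 to 40 and 11 to 32 on day 3, 8 to 15 and 1 to 5 on day 6, 2 to 7 and 0 to 3 on day 9 and 1 to 4 and 0 to 2 on day 12. For recruited cells against day 3 they were 32 to 48 and 25 to 34 on day 6, 40 to 54 and 30 to 38 on day 9 and 48 to 65 and 34 to 42 on day 12, and for the change of the population difference 19 to 33 and 8 to 14. With only the libraries compared, 24 were called higher between the populations on day 9, 2 higher and 0 lower in resident cells of day 9, and 32 higher in recruited cells of day 9. Without the filter, 17 were lower in resident cells of day 3, 3 on day 6 and 1 on day 9. With library totals alone, resident cells had 8 higher on day 6, 5 lower on day 9 and 2 lower on day 12. With the run covariate they had 24 higher on day 6, 10 higher and 6 lower on day 9 and 5 higher and 3 lower on day 12, and 21 members had a negative change of the population difference. Without the libraries numbered 12 to 18, resident cells had 5 lower on day 9 and 5 higher and 1 lower on day 12. DESeq2 called 7 higher and 3 lower in resident cells of day 12 (292 and 106 of all genes), and the CPM filter 1 lower. With the replicate block, which pairs the populations, the members called higher and lower between them were 53 and 64 on day 3, 49 and 53 on day 6, 48 and 43 on day 9 and 42 and 45 on day 12, 24 had a negative change, and 3 were lower in resident cells of day 6 and 1 on day 9. The alternatives on the 4 libraries, on the run and on the NRF2 list and the metallothioneins were chosen after seeing the data. Low-count members such as Slc27a6 and Slc13a2 are limited by depth.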
